A study of Mus musculus with 2 samples.

Results

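The mouse miR-297, miR-466, miR-467 and miR-669 miRNAs were examined in bone marrow (BM) LSKs, the lineage-negative, Sca-1-positive and c-Kit-positive cells that hold hematopoietic stem cells and early progenitors. Members were chosen by name alone: every mouse miRNA of the array whose name began with miR-297, miR-466, miR-467 or miR-669, followed by a letter, a hyphen or nothing. The array held 61 such miRNAs of 1881 in all (3.24%), made up of 3 of miR-297, 23 of miR-466, 12 of miR-467 and 23 of miR-669. The groups were 3W_LSK, sorted at week 3 after doxycycline withdrawal, and 0W_LSK, sorted at week 0, from C57BL/6 Scl/tTA-BCR/ABL mice. In this tet-off model regulatory sequences of Scl drive the tTA activator in stem and progenitor cells, doxycycline at 20 mg/L in the drinking water keeps BCR/ABL off, the fusion oncogene behind chronic myeloid leukemia, and its withdrawal switches the gene on. Mice of both groups carried the transgenes, and the age of the mice is not given in the sources used here. Cells of 3 mice were pooled for each group and hybridised to 1 array. With 1 array a group there were no replicates and the groups could not be tested against each other, and BCR/ABL, doxycycline withdrawal, elapsed time and differences between pools cannot be told apart.

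These miRNAs are a rodent family that grew by copying. Most of them come from a large cluster in an intron of Sfmbt2, a Polycomb group gene that is imprinted in the mouse, expressed from the paternal copy and best known in early embryo and placenta. Mature miRNAs guide Argonaute proteins to mRNAs, mainly through the seed near their 5′ end, and repress them. The hairpins of this family hold simple repeats: the 5p arms tend to be rich in alternating U and G, and the 3p arms in alternating A and C.

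In RefSeq (GRCm38.p6), 81 miRNA genes carried a name of the family, of which 71 lay within Sfmbt2 (chr2:10370440-10595253) and 10 on other chromosomes. The 71 genes spanned positions 10466663 to 10518279 of chromosome 2. By the positions in the normalized table, 53 of the 61 members lay within Sfmbt2 and 8 elsewhere, and 60 of the 61 starts fell inside a RefSeq miRNA gene of the family. The exception, miR-466c-5p, also lay within Sfmbt2. The genes elsewhere were Mir466i (chr13:17747473-17747593, within Cdk13, a cyclin-dependent kinase gene), Mir466j (chr10:60960723-60960844, in no other gene), Mir466k (chr3:85467377-85467498, within the lncRNA Gm31419), Mir466q (chr3:28419943-28420018, within the kinase gene Tnik), Mir467f (chr11:69635400-69635519, within Fxr2, which encodes an RNA-binding protein), Mir467g (chr5:34732853-34732972, within the kinase gene Grk4) and Mir669n (chr3:115979902-115979955, within the zinc transporter gene Slc30a7). Strand was not compared. The place of miR-669n differed between sources: in the scanner file's own mapping (mm9) its probes lay on chromosome 2, with a start 40 bases from that of the miR-669c-3p probes.

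A miRNA on this array is read by 1 to 4 probes of different length, each on many spots. The members had 162 probes of 13 to 23 bases. Each probe is complementary to the miRNA from its 3′ end inward, as was found for 16 of the 16 member probes that could be set against a RefSeq mature sequence. A probe shorter than its miRNA therefore leaves out bases at the 5′ end, and longer probes reach into the seed. The longest probe of each detected member is shown here because signals varied with a feature of these letters. Capitals mark the longest unbroken stretch in which G and T, or A and C, alternate, called the alternating run.
miR-466i-5p: CACACACACACACACA
miR-669p-3p: atacGTGTGTGTGTGTatg
miR-467f: tgtagGTGTGTGTGTGT
miR-466h-3p: GTGTGTGTGTGcgt
miR-466f-3p: gtgtgtaTGTGTGTGTG
miR-466q: acgtaTGTGTGTGTGTG
miR-466i-3p: tagtgtgtaTGTGTGTGTG
miR-669c-3p: tttactTGTGTGTGTGTG
miR-466g: TGTGTGTGcatgtgtc
miR-669n: acacacatcCACACACAa
miR-669f-3p: atacGTGTGTGTGTatgt
Probes are written 5′ to 3′ and come from the scanner files. The probe of miR-466i-5p was repeat from end to end, those of the others held a run of 8 to 12 bases.

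Mature sequences were found in the RefSeq table for 7 members. Those of the detected ones are shown with the seed (bases 2 to 8) in capitals, since related names need not share a seed.
miR-466q: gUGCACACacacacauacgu
miR-467f: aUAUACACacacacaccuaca
miR-466i-3p: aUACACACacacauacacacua
miR-669n: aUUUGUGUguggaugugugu
Each of the 7 seeds was held by 0 other array miRNAs among those with a sequence. Of these 4 members, miR-466q, miR-467f and miR-466i-3p carried AC repeats and miR-669n carried UG repeats, and their seeds differed.

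Each array held 56430 spots of mouse miRNAs, of which 1600 on the 3W_LSK array and 1941 on the 0W_LSK array were left out as outliers, and 0 were saturated. Of all 1881 miRNAs, 193 (10.3%) were detected in 3W_LSK and 178 (9.46%) in 0W_LSK, with a median signal of 71.4 and 85.3 array units. Negative control spots had a median of 4.56 in 3W_LSK and 4.58 in 0W_LSK. Of miRNAs known as markers, 3 of 3 of blood cells (miR-142a-3p, miR-142a-5p, miR-223-3p) and 4 of 4 of stem and progenitor cells were detected on both arrays, with summed signals of 1926 in 3W_LSK and 2236 in 0W_LSK for blood cells, and of 269 and 1054 for stem and progenitor cells. Erythroid markers were detected as 0 of 3 in 3W_LSK and 1 of 3 in 0W_LSK (miR-451a), with summed signals of 3.03 and 46.5. The lymphoid marker miR-150-5p, all 4 stromal markers and all 5 markers of other tissues were undetected on both arrays, with summed signals of at most 0.947 in 3W_LSK and 11.8 in 0W_LSK. The part of cell makeup in the values below was not tested, and in such bulk samples fewer cells of a type and less miRNA per cell cannot be told apart.

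Detection followed the scanner's flag, which weighs a probe's signal against its error. The same 11 members were detected in 3W_LSK and in 0W_LSK (18.0% of the members). Over all mouse miRNAs, 213 (11.3%) were detected on at least 1 array and 158 on both. By subfamily, 0 of 3 miR-297, 6 of 23 miR-466, 1 of 12 miR-467 and 4 of 23 miR-669 miRNAs were detected. By arm, these were 1 of 25 named 5p, 6 of 26 named 3p and 4 of 10 with no arm in their name. Within Sfmbt2, 0 of 24 5p members, 5 of 25 3p members and 1 of 4 without an arm were detected. Elsewhere in the genome 5 of 8 members were detected, against 6 of 53 within Sfmbt2. With miR-669n counted within Sfmbt2, these became 4 of 7 and 7 of 54. The share within Sfmbt2 (11.3%) was that of all mouse miRNAs, and the detected members there were 3p arms, apart from miR-466g, which has no arm in its name.

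The 50 undetected members had median summed signals of 3.45 array units in 3W_LSK and 3.08 in 0W_LSK. Their signals reached from -15.2 to 24.6 in 3W_LSK and from -12.0 to 36.4 in 0W_LSK. A sum below 0 was found for 16 of them in 3W_LSK and 14 in 0W_LSK, since the background had been subtracted. The brightest was miR-467a-3p with 24.6 in 3W_LSK and 36.4 in 0W_LSK, above the signals of the detected miR-669f-3p, so the flag did not follow the sum alone: miR-467a-3p had 4 probes, none of which averaged above 8.29 in 3W_LSK or 11.9 in 0W_LSK. Its log2 difference of 3W_LSK minus 0W_LSK was -0.52 (SE 0.17 over spots). Of the 33 undetected members with a signal above 0 on both arrays, the difference exceeded 1.96 SE for 4. The same share over all undetected miRNAs of the array is not given here, so this count is not read as a result about the members. This SE is taken over spots before scaling and leaves out the normalization. They were left out of the counts below, since neither array called them detected.

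Both arms were on the array for 18 hairpins. The 3p arm gave the higher signal in 15 of 18 in 3W_LSK and in 16 of 18 in 0W_LSK, most of them by undetected values. In miR-466h the 3p arm had 117 in 3W_LSK and 124 in 0W_LSK, and the 5p arm 7.36 and 2.33. In miR-466f the 3p arm had 84.6 in 3W_LSK and 83.6 in 0W_LSK, against -8.43 and -12.0 for the 5p arm. The hairpin of miR-466i went the other way and was the only one of the 18 with both arms detected: its 5p arm had 624 in 3W_LSK and 555 in 0W_LSK, and its 3p arm 58.4 and 66.5. Arms are read by different probes, so these signals do not rank the abundance of the arms.

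The brightest detected member, miR-466i-5p, had a summed signal of 624 array units in 3W_LSK and 555 in 0W_LSK. It held 44.1% of the signal of the 11 detected members in 3W_LSK and 39.3% in 0W_LSK. The member from the cluster with the highest signal, miR-669p-3p, had 197 in 3W_LSK and 217 in 0W_LSK. For miR-467f, from the gene in Fxr2, the signals were 130 in 3W_LSK and 134 in 0W_LSK. These 3 kept their order on both arrays. Next came miR-466h-3p with 117 in 3W_LSK and 124 in 0W_LSK, and then miR-466f-3p with 84.6 in 3W_LSK and 83.6 in 0W_LSK. The signals of miR-466q, from the gene in Tnik, were 76.0 in 3W_LSK and 85.8 in 0W_LSK. The 3p arm of miR-466i had 58.4 in 3W_LSK and 66.5 in 0W_LSK. Only miR-466f-3p and miR-466q changed places between the arrays in this middle group. At the lower end, miR-669c-3p had 37.7 in 3W_LSK and 42.1 in 0W_LSK, and miR-466g had the same 37.7 and 42.1 to 3 digits. Signals of 33.6 in 3W_LSK and 36.8 in 0W_LSK were found for miR-669n. The dimmest, miR-669f-3p, had 17.3 in 3W_LSK and 25.7 in 0W_LSK. Sums grow with the number of probes, which was 4 for miR-669p-3p, miR-466f-3p and miR-466g and 2 for the other 8 detected members. Summed over the 11 members, the signal was 1415 in 3W_LSK and 1413 in 0W_LSK, which was 2.29% and 2.38% of the signal of all detected miRNAs.

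**Figure D1:**
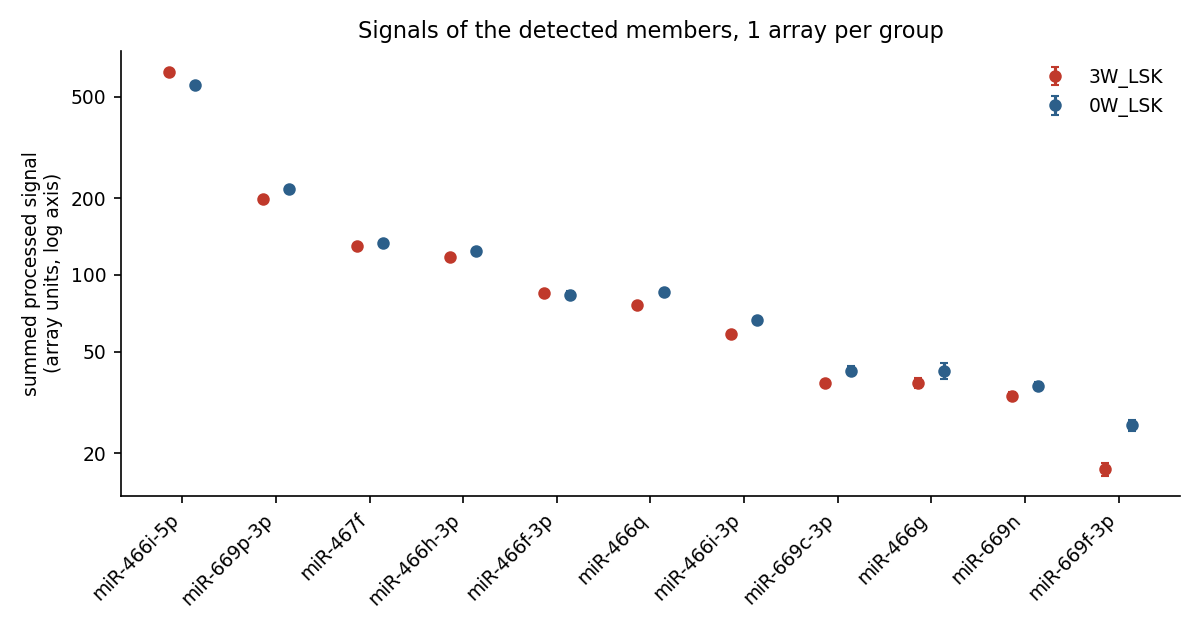
Summed processed signal of the 11 detected members (array units, log axis) in 3W_LSK (red, left of each pair) and 0W_LSK (blue, right), 1 array each; bars are standard errors over spots. The pairs lie close together over the whole range, with miR-466i-5p at 624 and 555 and miR-669f-3p at 17.3 and 25.7.

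Detection went with the length of the alternating run in the probes, but not in strict order. Taking each member's longest run over its probes, 9 of 9 members with a run of 10 to 16 bases were detected, 0 of 4 with a run of 9, 2 of 10 with a run of 8 (miR-466g and miR-669n) and 0 of 38 with a run of 3 to 7. The split at 10 bases was chosen after the values had been seen and carries no test. Over the whole array, 11 of 1881 miRNAs (0.585%) had a probe with a run of at least 10 bases, the 9 members included, and 11 of these 11 were detected. The 4 undetected members with a run of 9 were miR-669a-3-3p, miR-467g, miR-466p-5p and miR-466a-5p, and their summed signals reached at most 14.3 in 3W_LSK and 13.4 in 0W_LSK.

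Across the 162 member probes, Spearman's rho between run length and mean probe signal was 0.67 in 3W_LSK and 0.64 in 0W_LSK. Between the full length of the probe and its signal it was 0.17 in 3W_LSK and 0.12 in 0W_LSK. For the 97 probes whose run was of G and T, rho with run length was 0.75 in 3W_LSK and 0.76 in 0W_LSK. For the 65 probes whose run was of A and C, it was 0.27 in 3W_LSK and 0.15 in 0W_LSK. These are descriptions over probes that share miRNAs, arrays and base composition, and probes of 1 miRNA are not independent. Runs of G and T, complementary to repeats of A and C in the miRNA, were the longest run in 33 members, of which 9 were detected. Runs of A and C were the longest in 28 members, of which 2 were detected, miR-466i-5p and miR-669n.

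**Figure D2:**
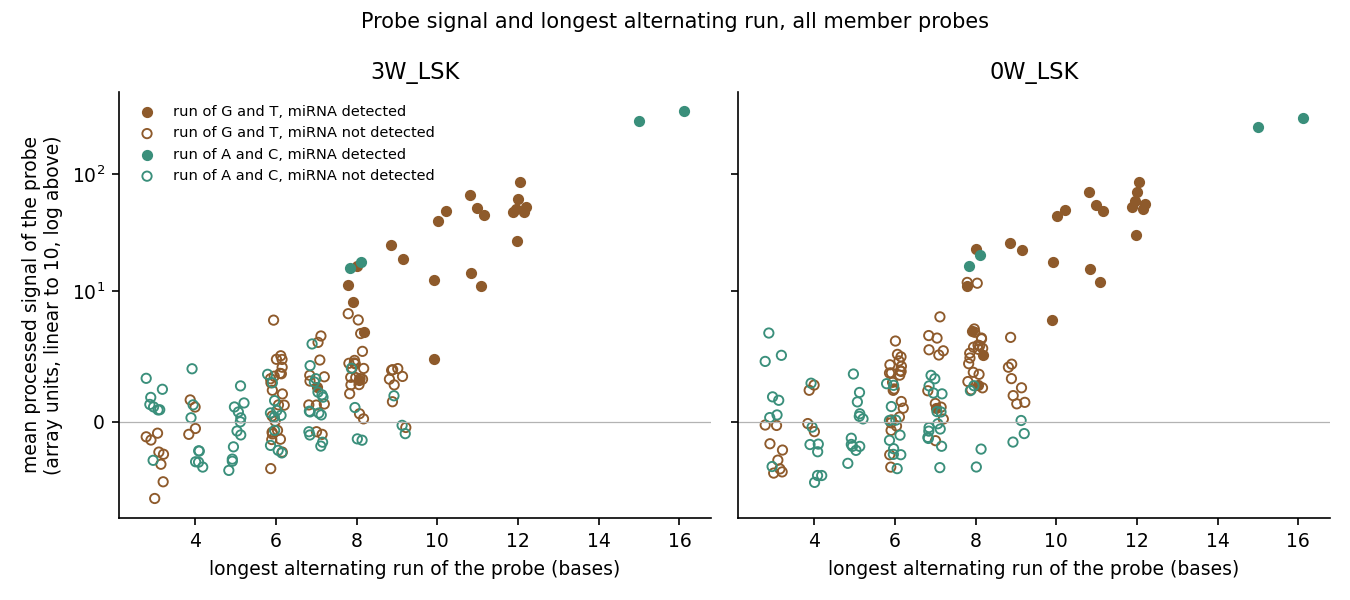
Mean processed signal of each of the 162 member probes (array units, linear to 10 and logarithmic above) against its longest alternating run in bases, in 3W_LSK (left) and 0W_LSK (right); brown marks runs of G and T, green runs of A and C, filled points are probes of detected members, and points are shifted sideways at random to part them. Probes with runs under 8 bases lie near 0 on both arrays, and the 15 and 16 base probes of miR-466i-5p lie at 283 and 341 in 3W_LSK and at 252 and 302 in 0W_LSK.

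Probes of equal length from close relatives with different runs gave different signals. The 17 base probes of miR-467f and of its undetected relatives from the cluster begin with nearly the same letters and are shown for that reason.
miR-467f: tgtagGTGTGTGTGTGT
miR-467a-3p: tgtagGTGTGTGTatgt
miR-467d-3p: gtgtagGTGTGTGTatg
The probe of miR-467f, with a run of 12, averaged 85.5 ± 6.15 in 3W_LSK (SD over 14 spots) and 85.0 ± 6.95 in 0W_LSK (13 spots). That of miR-467a-3p, with a run of 8, averaged 4.09 ± 1.54 in 3W_LSK and 5.63 ± 5.39 in 0W_LSK (8 spots each), and that of miR-467d-3p, also with a run of 8, 2.84 ± 4.48 and 4.89 ± 4.45 (15 spots each). A like pair was found for the 18 base probes of miR-669p-3p and miR-669f-3p.
miR-669p-3p: atacGTGTGTGTGTGTat
miR-669f-3p: atacGTGTGTGTGTatgt
The first, with a run of 12, averaged 50.5 ± 2.83 in 3W_LSK and 58.8 ± 5.37 in 0W_LSK (7 spots each). The second, with a run of 10, averaged 12.5 ± 3.18 in 3W_LSK (15 spots) and 17.8 ± 2.47 in 0W_LSK (12 spots). Run length did not order signals at equal probe length throughout. The 17 base probe of miR-669c-3p, with a run of 11, averaged 11.1 in 3W_LSK and 12.1 in 0W_LSK. That of miR-466f-3p, with a run of 10, averaged 48.1 and 49.8. At 16 bases, both with a run of 11, miR-466q averaged 14.4 in 3W_LSK and 15.4 in 0W_LSK, and miR-467f 44.6 and 48.8. A difference in abundance of the miRNAs and a difference in binding of the probes cannot be told apart in such pairs.

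Probes of 1 member are meant for the same miRNA, so their signals were set beside each other, though other miRNAs may bind them too. All 4 probes of miR-466f-3p are also complementary to miR-466i-3p, and their run grows by 1 base at each step.
14 bases: gtgtgtaTGTGTGT
15 bases: gtgtgtaTGTGTGTG
16 bases: gtgtgtaTGTGTGTGT
17 bases: gtgtgtaTGTGTGTGTG
Their mean signals were 2.70, 9.20, 24.7 and 48.1 in 3W_LSK, and 1.06, 6.97, 25.8 and 49.8 in 0W_LSK. One more base of the repeat also separated the 17 from the 16 base probe of miR-466q, at 61.7 ± 3.78 and 14.4 ± 3.24 in 3W_LSK and at 70.3 ± 7.87 and 15.4 ± 4.85 in 0W_LSK (15 spots each). Among the 11 detected members there were 17 such steps from a probe to the next longer one. The longer probe was brighter in 16 of 17 steps in 3W_LSK and in 15 of 17 in 0W_LSK. In 8 of the steps the run grew too, and the longer probe was brighter in 8 of 8 on both arrays. In the other 9 the run stayed the same, and the longer probe was brighter in 8 of 9 in 3W_LSK and in 7 of 9 in 0W_LSK. The 4 probes of miR-466g, all with a run of 8, averaged 3.19, 6.87, 11.3 and 16.3 in 3W_LSK and 2.79, 5.11, 11.1 and 23.1 in 0W_LSK, so signals also climbed without a longer run. The exceptions were steps of miR-669p-3p, whose 4 probes have the same run of 12 bases: their means were 47.2, 47.0, 50.5 and 52.8 in 3W_LSK and 52.7, 49.9, 58.8 and 55.7 in 0W_LSK.

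**Figure D3:**
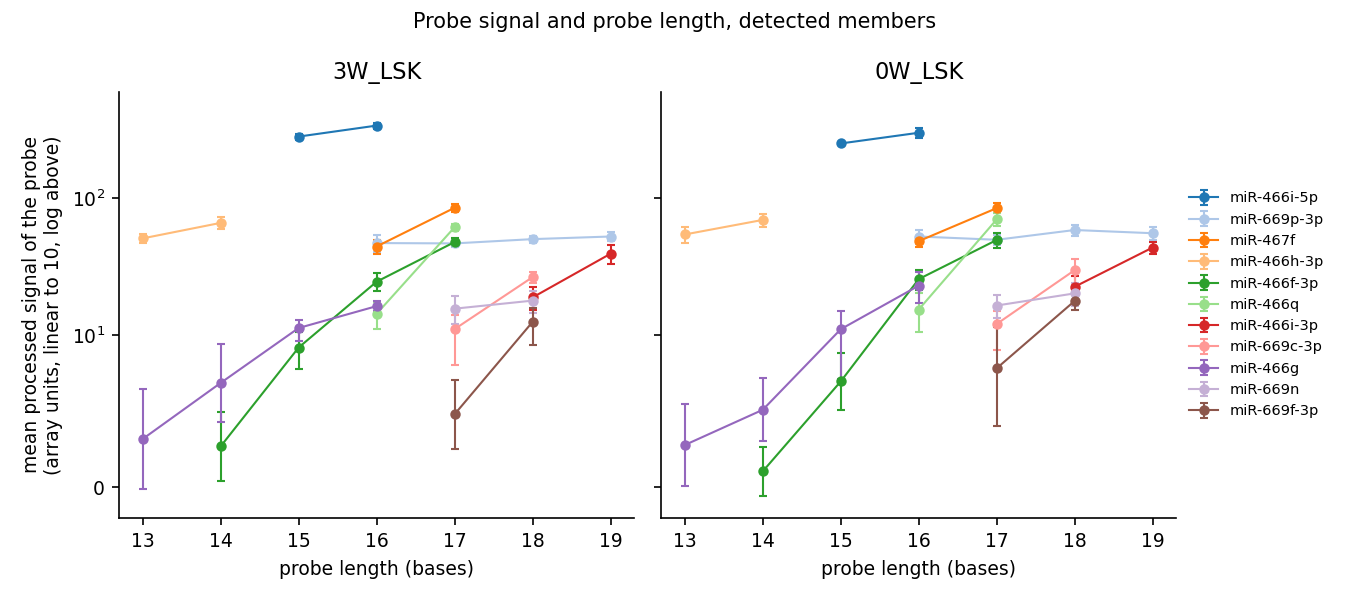
Mean processed signal of each probe of the 11 detected members (array units, linear to 10 and logarithmic above) against probe length in bases, in 3W_LSK (left) and 0W_LSK (right); bars are SD over spots and lines join the probes of 1 miRNA. Signals climb with length for miR-466f-3p, from 2.70 to 48.1 in 3W_LSK and from 1.06 to 49.8 in 0W_LSK, while the 4 probes of miR-669p-3p stay level.

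Some probes could not tell members apart by sequence. Of the member probes, 12 (of 4 members) were contained, letter for letter, in the longest probe of another member, and 0 members had a probe contained in the longest probe of a miRNA outside the family. Of the 4, only miR-466f-3p was detected. All 4 of its probes, shown above, lie within the 19 base probe of miR-466i-3p (tagtgtgtaTGTGTGTGTG) and so are complementary to that miRNA as well. The signal of miR-466f-3p, from the Sfmbt2 cluster, may therefore hold signal of miR-466i-3p, from chromosome 13, and is uncertain in that respect. The reverse could not be checked in this way for the pair. The 2 probes of miR-466i-3p have 18 and 19 bases, and the longest probe of miR-466f-3p has 17. Those 2 probes were contained in the longest probe of 0 other members. Whether the signal of miR-466i-3p holds signal of miR-466f-3p was not tested. One-way matches were also found among the undetected members for miR-466d-5p with miR-466n-5p, miR-466f-5p with miR-669b-5p and miR-466p-5p with miR-466a-5p. Longest probes leave out part of a miRNA, and RefSeq mature sequences gave further full matches for undetected members. Probes of miR-466f-5p, miR-669b-5p and miR-669f-5p were complementary to miR-466j. Those of miR-466p-5p were complementary to miR-466k, and that of miR-669l-5p to miR-467h. Most members had no mature sequence to search. Partial matches were not scored, so the part of other repeat-bearing RNAs in any member's signal was not tested. This holds also for miR-466i-5p, the brightest member, whose probes are AC repeat from end to end.

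For the comparison of 3W_LSK with 0W_LSK, signals were quantile normalized over all miRNAs and set on a log2 scale. Of the 11 detected members, 0 were higher and 0 were lower at the 1.5-fold threshold (a ratio of at least 1.5, or of at most 0.67). Of all 213 miRNAs detected on at least 1 array, 25.8% were higher and 28.6% lower at this threshold, 54.5% in all. This share depended on the processing: with an RMA-like summary (normexp, offset 50), 9 were higher and 13 lower (10.3%), and over the other 10 alternatives it was 49.3% to 65.3%. Of the 158 detected on both arrays, as these 11 were, 19.0% were higher and 26.6% lower, 45.6% in all. The median log2 difference of the 11 members was -0.03, beside -0.04 over the 158. The members' log2 signals on the arrays had a Pearson correlation of 0.996 (n = 11), beside 0.894 over the 158 miRNAs, a description of 2 arrays with no test.

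The largest difference among the members was that of miR-466i-5p, with a log2 difference of 0.55 (SE 0.02 over spots), a 1.46-fold higher value in 3W_LSK. Its 15 base probe averaged 283 ± 14.1 in 3W_LSK and 252 ± 7.87 in 0W_LSK, and its 16 base probe 341 ± 16.5 and 302 ± 24.9 (SD over 14 or 15 spots). The spots of the arrays overlapped for both probes. Before scaling, the ratio of 3W_LSK to 0W_LSK was 1.13, so part of the 1.46 came with the normalization. At the other end, the log2 difference of miR-669f-3p was -0.41 (SE 0.11), 1.33-fold lower in 3W_LSK. Its 18 base probe averaged 12.5 ± 3.18 in 3W_LSK and 17.8 ± 2.47 in 0W_LSK, again with overlapping spots. The share of that probe's spots well above background was only 0.13 on each array.

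Between these ends lay miR-467f at 0.28 (SE 0.03), miR-466h-3p at 0.26 (SE 0.04), miR-669p-3p at 0.23 (SE 0.04) and miR-466f-3p at 0.16 (SE 0.06). Below 0 lay miR-466q at -0.03 (SE 0.05), miR-466g at -0.14 (SE 0.12), miR-669c-3p at -0.14 (SE 0.07), miR-466i-3p at -0.15 (SE 0.06) and miR-669n at -0.16 (SE 0.07). The difference exceeded 1.96 SE for 9 of the 11, all but miR-466q and miR-466g. The same share over all detected miRNAs is not given here, so this count is not read as a trait of the family. This SE covers spots within the arrays only, not mice or arrays. It was taken from signals before scaling, so it leaves out the normalization as well. Set against the unscaled log2 differences, miR-466q (-0.17) exceeded 1.96 SE. By the same measure miR-466f-3p (0.02), miR-467f (-0.04), miR-669n (-0.13) and miR-466g (-0.16) did not. The unscaled differences of miR-669p-3p (-0.14) and miR-466h-3p (-0.08) exceeded it with the other sign.

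The signs of most of these differences followed the scaling. Without normalization 9 of the 11 members had a lower signal in 3W_LSK, with a median log2 difference of -0.14 and a range from -0.57 to 0.17, beside a median of -0.18 over the 158 miRNAs detected on both arrays. Over the values as reported and 11 alternatives (shown in the plot of settings), miR-466i-5p and miR-466f-3p stayed above 0 and miR-669f-3p below 0, while the other 8 members had both signs. Of the 28 probes of the 11 members, 20 had a lower mean in 3W_LSK and 8 a higher one, and the spots of the arrays overlapped for 28 of 28. The 23 probes with a mean above 10 on both arrays had unscaled ratios of 0.702 to 1.13.

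**Figure D4:**
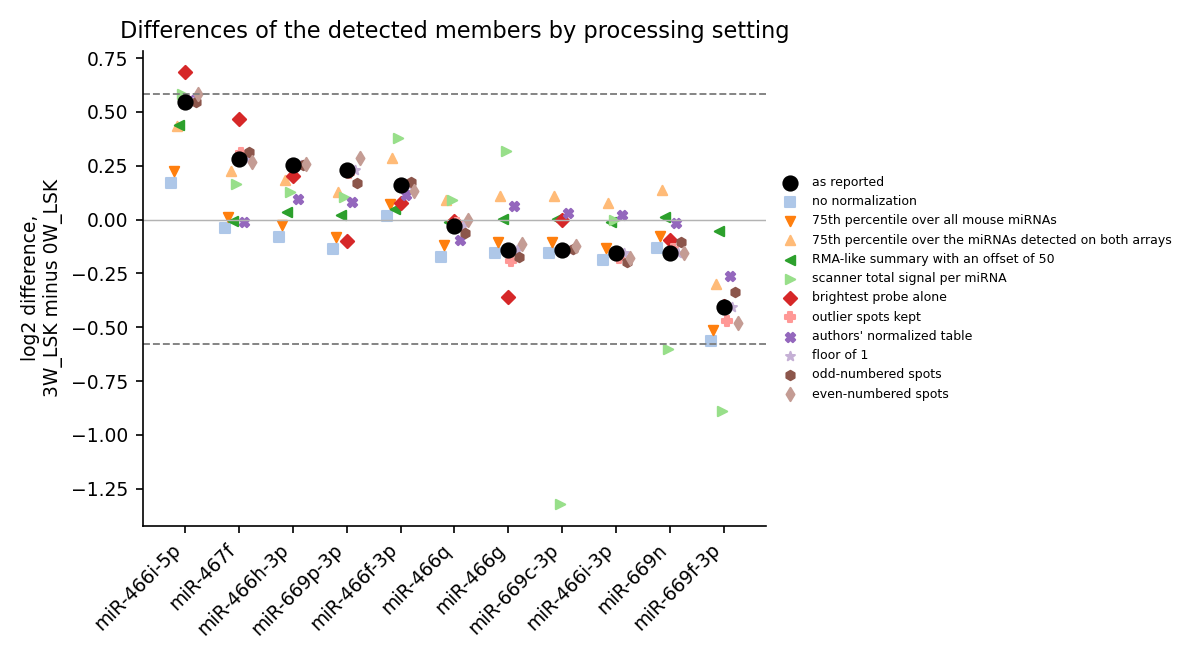
Log2 difference of 3W_LSK minus 0W_LSK for the 11 detected members under the reported setting (black) and 11 alternatives (coloured marks, named beside the plot); dashed lines mark ratios of 1.5 and 0.67. Nearly all marks lie between the dashed lines, and the marks beyond them are miR-466i-5p at 0.68 with the brightest probe alone and miR-669c-3p at -1.32, miR-669f-3p at -0.89 and miR-669n at -0.60 with the scanner's total signal.

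**Figure D5:**
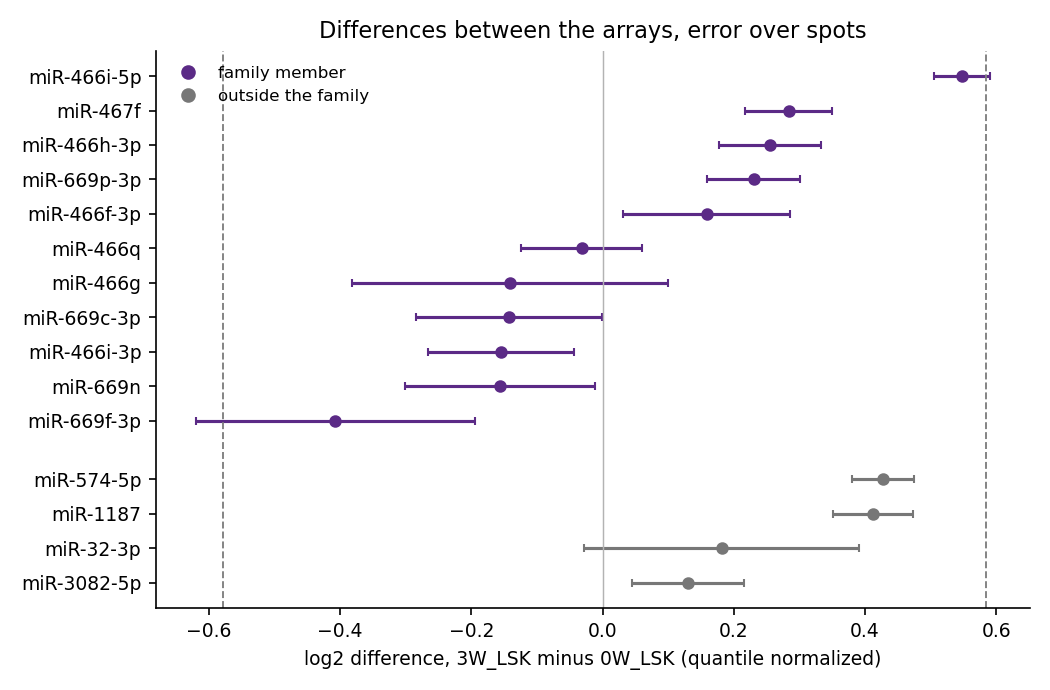
Log2 difference of 3W_LSK minus 0W_LSK (quantile normalized) for the 11 detected members (purple) and the 4 detected repeat-bearing miRNAs outside the family (grey); bars are 1.96 SE over spots and dashed lines mark ratios of 1.5 and 0.67. The points of all 15 miRNAs lie between the dashed lines, with miR-466i-5p at 0.55 nearest to the upper and miR-669f-3p at -0.41 nearest to the lower one.

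MiRNAs outside the family that resemble it in sequence were taken as the closest comparison. Both strands were covered by searching the mature sequences for UGUGUGU and for its complement ACACACA. Of the 1608 array miRNAs with a mature sequence in the RefSeq table, 16 (0.995%) held one of them, of which 7 were members and 9 were not. Of those 9, 4 were detected, and they were the same 4 that had a probe run of at least 9 bases. No array miRNA outside the family lay within Sfmbt2 (0 found). The 4 are shown with the seed in capitals; each carries UG repeats.
miR-574-5p: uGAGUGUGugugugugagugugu
miR-1187: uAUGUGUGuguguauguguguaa
miR-3082-5p: gACAGAGUgugugugucugugu
miR-32-3p: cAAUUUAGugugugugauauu
Summed signals of miR-574-5p were 195 in 3W_LSK and 182 in 0W_LSK, a log2 difference of 0.43 (SE 0.02). For miR-1187 they were 114 in 3W_LSK and 105 in 0W_LSK, a log2 difference of 0.41 (SE 0.03). The values of miR-3082-5p were 90.7 in 3W_LSK and 94.9 in 0W_LSK, with 0.13 (SE 0.04), and those of miR-32-3p 24.3 and 23.6, with 0.18 (SE 0.11). Of the 4, 0 were higher and 0 lower at 1.5-fold, and their median log2 difference was 0.30, beside -0.03 for the 11 members. With the scanner's total signal miR-32-3p was lower, at -2.16, and miR-3082-5p was below 0 in 2 of the 12 settings, at -0.06 without normalization. Before scaling, the ratios of 3W_LSK to 0W_LSK were 0.956 to 1.09 for these 4. The probe runs of miR-466i-5p and miR-669n are also complementary to UG repeats, and their ratios were 1.13 and 0.914. For the 9 detected members with probe runs of G and T, the ratios were 0.675 to 1.01. Whether the sets differ was not tested, since each group had 1 array.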

How the data were processed

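LSKs of 3W_LSK and 0W_LSK mice (3 mice pooled each, 1 array each) were profiled on an Agilent Mouse miRNA array with Cy3 label. Scans were read with Feature Extraction 10.7.1.1 per the file headers. The deposited intensity values are background-subtracted processed signals per spot, not normalized between arrays. The authors also deposited log2 values, quantile normalized with AgiMicroRna, used here only as an alternative and for positions. From the intensities, outlier spots were left out, spots averaged per probe (6 to 15 spots for detected members), probes summed per miRNA, sums quantile normalized over 1881 miRNAs, raised to at least 0.5 where lower, and put on a log2 scale. Detection was the scanner's flag, based on a signal of 3 times its error. The number of arrays limits the precision.

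Groups came from the labelled time. No test was made. Named were all members detected on at least 1 array and the detected miRNAs of the outside sets, and relatives shown for their probes were picked after their values were seen. The members and lists were chosen with earlier results of these data known. Sequences and positions came from the scanner files and RefSeq (GRCm38.p6). Scripts, tested on simulated data, ran in Python 3.11.15 with numpy 2.4.6, pandas 2.3.3 and scipy 1.17.1, and in R 4.3.3 with limma 3.58.1 for a summary with normexp (offset 50). Alternatives changed the scaling, background, summary of spots and probes, outlier spots, floor, source of values, detection rule and spots used.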

Additional observations from a re-analysis of the deposited data

How the results depend on the processing

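The 11 detected members were 10 when at least 50% of the spots of a probe had to be well above background (miR-669f-3p was lost) and 11 by the authors' flags. The counts at 1.5-fold stayed at 0 higher and 0 lower with most alternatives. The exceptions were the scanner's total signal per miRNA, with 3 lower (miR-669c-3p at -1.32, miR-669f-3p at -0.89 and miR-669n at -0.60 on the log2 scale), the brightest probe alone, with 1 higher (miR-466i-5p at 0.68), and all 61 members without a detection filter, with 9 higher and 10 lower, all of them undetected. The unfiltered share over all 1881 miRNAs is not given here, so these unfiltered counts are not read as a result about the members. Some rest on the floor of 0.5. The lower miR-466b-3p had sums of -0.882 in 3W_LSK and 2.67 in 0W_LSK, and the higher miR-669k-5p 3.50 and 0.154. The median of -0.03 became 0.13 with scaling to the 75th percentile of the miRNAs detected on both arrays and 0.11 with the scanner's total signal; the cause was not tested. Of 121 values of single members, 77 moved by less than 1.96 SE, 18 moved up and 26 moved down. With the authors' normalized values, 0 of the 11 passed 1.5-fold, with miR-466i-5p at 0.56 and miR-669f-3p at -0.26. No paired analysis was possible because each group had 1 array.

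Limits: 1 array per pool leaves the spread between mice unmeasured. Quantile scaling of 2 arrays ties each value to its rank. Sums near the lowest detected signals (6.22 in 3W_LSK and 17.5 in 0W_LSK) have large errors, and values of undetected members are near background.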
